A study of Mus musculus with 6 samples.

Results

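Transcripts of the respiratory chain and the ATP synthase, encoded by the nuclear and the mitochondrial genomes, were compared between mouse cells with a knockdown of Exosc2 and their controls. Of 17912 genes in the deposited table, 91 were taken by their symbols alone, and no measured value entered the choice. The symbols were those of the Nduf subunits, Sdha to Sdhd, the Uqcr family, Cox4 to Cox8, Cyc1, Cycs, the Atp5 family and the protein genes that carry the prefix mt-. By complex they came to 35 nuclear genes of complex I, 4 of complex II, 9 of complex III, 17 of complex IV and 17 of complex V. Cycs, the gene of cytochrome c, and 8 mitochondrial genes completed the set. Ndufa4 and its paralog Ndufa4l2 were counted with complex IV, of which NDUFA4 is a subunit, and the pattern also took Atp5s and Atp5sl, which are not subunits of the ATP synthase. Of the 91, 89 passed the filter on low values, and Cox7b2 and mt-Nd3 did not.

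The knockdown cells were 3 clones (5, 6 and 7) labelled as embryonic stem cells (ESCs), with the genotype EXOSC2_KD and a short hairpin RNA named shEXOSC2. The controls were 3 libraries (1, 2 and 3), also labelled as ESCs, with the genotype WT. EXOSC2 belongs to the RNA exosome, a complex of nucleases and cofactors that breaks down RNA. The labels name no treatment, no parental line and no hairpin for the controls, and each knockdown library is a clone, so the hairpin and differences between clonal lines cannot be told apart. The knockdown libraries are titled as different clones, while the labels do not say whether the controls came from separate cultures. Each p-value reflects the spread among these libraries alone, which may be technical among the controls.

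The respiratory chain moves electrons from NADH and succinate to oxygen and pumps protons across the inner mitochondrial membrane. Complex I (NADH dehydrogenase) and complex II (succinate dehydrogenase) pass electrons to ubiquinone, complex III passes them to cytochrome c, complex IV (cytochrome c oxidase) reduces oxygen, and complex V makes ATP from the proton gradient. The mitochondrial genome encodes the most hydrophobic subunits of complexes I, III, IV and V, complex II is encoded in the nucleus alone, and nuclear subunits must therefore be matched to mitochondrial ones. Mouse ESCs are known to lean on glycolysis while keeping an active respiratory chain.

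Values below are scaled counts, which are read counts per gene divided by a size factor per library. The whole reads behind them numbered 24268430 to 26494985 in the clones and 21107761 to 24633836 in the controls. A log2 fold change compares EXOSC2_KD with control, as a difference of mean log2(scaled count + 1), given ± SE with n = 3 libraries a group, and a gene is called where limma's adjusted p, over all 15179 genes with a mean of at least 10, is below 0.05. Exosc2 itself had 1138, 997 and 981 in clones 5, 6 and 7, against 2457, 2473 and 1954 in controls 1, 2 and 3, which left the clones at 45.2% of the control mean (log2 fold change -1.14 ± 0.13, adjusted p = 5.11e-05). The label was checked on 10 ESC markers, of which 8 were lower and 2 higher in the clones, with Zfp42 and Utf1 at no read in any clone. Esrrb, also among the 10, had a mean of 2.27 in the clones and 16546 in the controls. The summed ESC markers ranged from 104968.6 to 115173.4 in the clones and from 105403.3 to 120269.0 in the controls. These sums overlapped, but a sum is set by the most abundant markers and does not show that the ESC state was kept. Of 9 tested fibroblast (feeder cell) markers 7 were higher and 2 lower, with sums of 48944.3 to 63765.1 in the clones and 10708.8 to 12125.5 in the controls. Of 4 epithelial markers 1 was higher and 3 lower, with sums of 8056.9 to 11259.5 in the clones and 22428.9 to 34683.5 in the controls. Sums of blood markers were 32.9 to 43.8 in the clones and 41.0 to 90.0 in the controls. The part of these differences in the results below was not tested, and in bulk RNA a change in the share of cells of a type cannot be told apart from a change in RNA per cell.

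Transcripts of the nuclear genes were mostly lower in the clones. Of 82 tested nuclear members 44 were called lower (53.7%) and 7 higher (8.54%), and 31 were not called. Over all genes tested, 73.5% were called, with 38.3% lower and 35.2% higher. The median log2 fold change of the nuclear members was -0.40, beside -0.07 over all genes. Changes were moderate: 8 nuclear members were called and at least 2-fold lower and none was called and at least 2-fold higher, where 48.1% of all genes tested were called at 2-fold or more, 25.7% lower and 22.4% higher. All 3 clones lay below all 3 controls for 43 of the 82 and above them for 6, and for the other 33 the groups overlapped. Over all genes tested the groups did not overlap for 77.3%, with the clones lower for 40.6% and higher for 36.7%. Summed as reads, the nuclear members made up 0.811, 0.862 and 0.829% of clones 5, 6 and 7 and 1.223, 1.375 and 1.074% of controls 1, 2 and 3, so every clone lay below every control. The count of 44 stayed within 1.5 times of itself under each alternative that was run, whereas the count of 7 higher members went to 17 without control 2, to 2 without clone 6 and to 3 without clone 7 or without control 1.

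**Figure D1:**
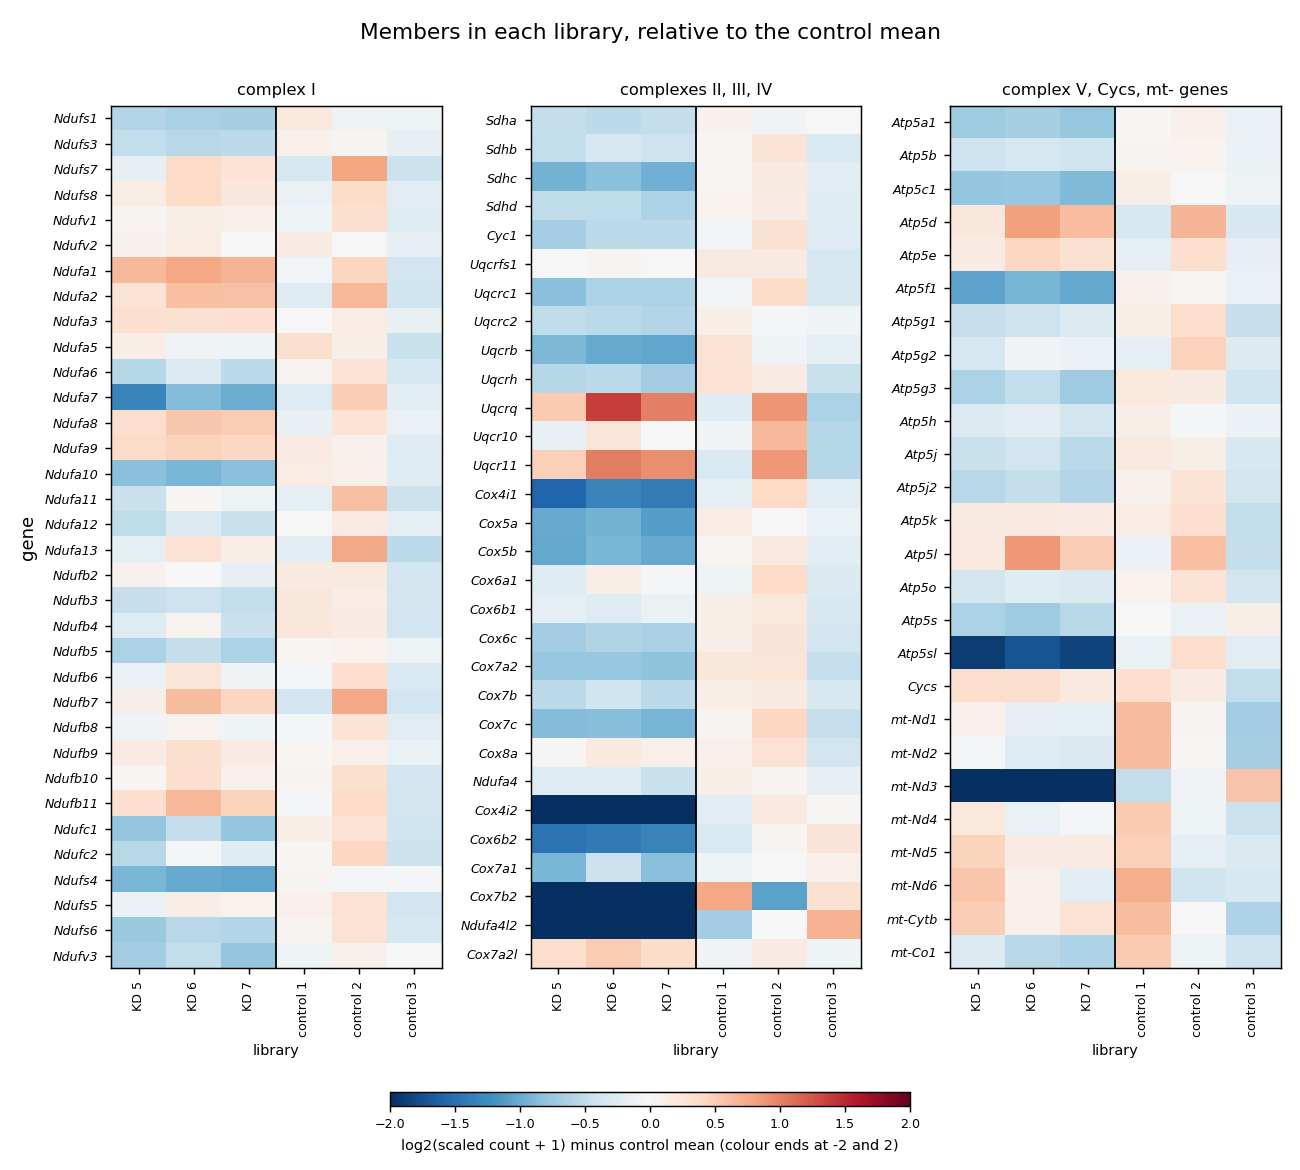
Colour gives log2(scaled count + 1) of the members shown (rows) in each library (columns, KD for the EXOSC2_KD clones) minus the mean of the 3 controls, with the colour scale ending at -2 and 2. Complexes II to V are mostly blue in the 3 clones, complex I is mixed, and control 2 is the highest control for 57 of the 82 tested nuclear members.

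The controls differed among themselves more than the clones did. The median SD of a nuclear member on the log2 scale was 0.088 among the clones and 0.312 among the controls, beside 0.127 among the clones and 0.249 among the controls for all genes tested. Control 2 was the highest control for 57 of the 82 and control 3 the lowest for 69, and clone 6 was the highest clone for 64. Small subunits such as Ndufb7, Uqcr11 and Atp5d were among the members with a high control 2. Ndufb7, an accessory subunit of complex I, had 1055, 1496 and 1298 in clones 5, 6 and 7, against 739, 1652 and 744 in controls 1, 2 and 3, so control 2 alone exceeded every clone. Without control 2, 10 further members were called higher, among them Ndufs7, Ndufs8 and Ndufv1 of the complex I core and Atp5d, Atp5e and Atp5l of complex V.

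Complexes differed in their medians. The median log2 fold change was -0.02 for complex I, -0.52 for complex II, -0.55 for complex III, -0.75 for complex IV and -0.39 for complex V, against 0.01 for the 7 tested mitochondrial genes. Called lower were 13 of 35 members of complex I, all 4 of complex II, 5 of 9 of complex III, 12 of 16 tested of complex IV and 10 of 17 of complex V. For complex I that is 37.1%, close to the 38.3% of all genes tested. After centring by chromosome, 8 members of complex I, 2 of complex II, 4 of complex III, 11 of complex IV and 12 of complex V were called lower. With that centring 5567 of all 15179 genes tested were called lower. The median of complex I was -0.21 under quantile scaling and without control 3, and 0.076 without control 2. These are descriptions over genes that share libraries, and the difference between complexes was not tested.

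**Figure D2:**
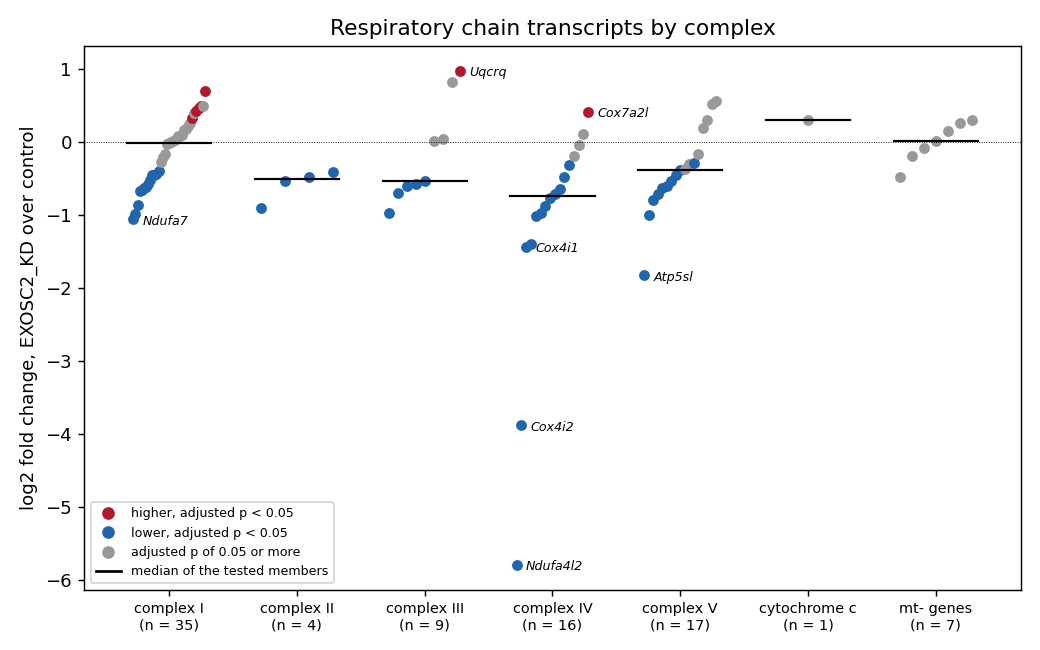
Each point is a tested member, placed by its complex and by its log2 fold change, EXOSC2_KD over control, with colours for calls at an adjusted p of 0.05 and black lines for medians. The median of complex I lies at -0.02 and that of complex IV at -0.75, Ndufa4l2 lies lowest at -5.80, and none of the 7 mt- genes is called.

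In complex I both directions occurred. The core subunits carry the flavin and the iron-sulfur clusters, and Ndufs1 and Ndufs3 were among those that fell. Ndufs1, the largest of the iron-sulfur subunits, had 3621, 3446 and 3408 in clones 5, 6 and 7, against 6300.4, 5029.7 and 5035 in controls 1, 2 and 3 (log2 fold change -0.64 ± 0.12, adjusted p = 9.16e-04). Ndufs3 was at -0.53 on the log2 scale, with every clone below every control for both genes. Ndufv1, which binds the flavin, had 3206, 3371 and 3319 in the clones and 2908, 3865 and 2607 in the controls, and its 95% interval ran from -0.23 to 0.43. Ndufs7, Ndufs8 and Ndufv2, further iron-sulfur subunits, were not called either.

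Among the 28 accessory subunits of complex I taken here, 10 fell and 5 rose. That is 35.7% and 17.9%, beside 38.3% and 35.2% of all genes tested, so the share of falls was close to that of all genes. Ndufs4, which is needed for a stable complex and is mutated in human Leigh syndrome (ENSMUSG00000021764.6, chr13:114287795-114388258, minus strand, GRCm38), had 936, 870.2 and 854 in clones 5, 6 and 7, against 1815, 1729 and 1729 in controls 1, 2 and 3, and the clones held 50.5% of the control mean (log2 fold change -0.99 ± 0.10, adjusted p = 2.68e-05). Ndufa7 had 1065, 1463 and 1339.5 in clones 5, 6 and 7, against 2227, 3739 and 2283 in controls 1, 2 and 3 (log2 fold change -1.06 ± 0.21, adjusted p = 0.00168) and was the only complex I member called at 2-fold or more. Ndufa10 had 2237, 2116 and 2234 in clones 5, 6 and 7, against 4414, 4269 and 3369.7 in controls 1, 2 and 3 (log2 fold change -0.86 ± 0.12, adjusted p = 2.09e-04). The groups did not overlap for any of these genes, and controls 1, 2 and 3 were nearly equal for Ndufs4 while control 2 stood high for Ndufa7. Ndufv3, an accessory subunit beside the flavin-binding module, had 1366, 1582 and 1276 in the clones and 2083, 2354 and 2219 in the controls (log2 fold change -0.66 ± 0.12, adjusted p = 8.00e-04).

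The rises in complex I were smaller. Ndufa1, a membrane-arm subunit encoded on the X chromosome, had 929, 1007 and 942 in clones 5, 6 and 7, against 569, 796 and 453 in controls 1, 2 and 3 (log2 fold change 0.70 ± 0.20, adjusted p = 0.0103), with every clone above every control. Ndufb11, also X-linked and in the membrane arm, had 1428, 1795 and 1546 in the clones and 1113, 1481 and 882 in the controls (log2 fold change 0.48 ± 0.19, adjusted p = 0.044), and clone 5 fell below control 2. Ndufa3, Ndufa8 and Ndufa9 were called higher at 0.33, 0.47 and 0.42, without overlap. Of the 7 nuclear members called higher, Ndufa1 was the only one called under each alternative. The other 17 members of complex I ranged from -0.27 to 0.49 with adjusted p-values from 0.0994 to 0.966. Their 95% intervals reached a median of 0.451 to either side of the estimate, which limits what could be detected.

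Gene position moved with part of these results. The median log2 fold change of all tested genes was -0.60 on chromosome 1, -0.49 on chromosome 8, 0.41 on chromosome 6 and 0.35 on chromosome 19. Ndufs1, Ndufa10, Ndufb3, Sdhc and Cox5b lie on chromosome 1. After each library was centred by chromosome, Ndufs1 was at -0.05, Ndufa10 at -0.28, Ndufb3 at 0.13 and Sdhc at -0.33, none of them called, while Cox5b remained called at -0.40. On chromosome 6, Ndufa9 came to 0.04 and was no longer called. Over all nuclear members the centred counts were 37 lower and 6 higher, with a median of -0.38. Over all 15179 genes tested they were 5567 lower and 5468 higher, with a median of -0.003. Whether the copy number of these chromosomes differed between the lines was not tested.

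All 4 subunits of complex II, which also serves the citric acid cycle, fell. Sdha, the flavoprotein that oxidises succinate, had 5965, 5799.8 and 5985 in clones 5, 6 and 7, against 8774, 7904 and 8262 in controls 1, 2 and 3 (log2 fold change -0.49 ± 0.09, adjusted p = 0.0011). Sdhb, which carries the iron-sulfur clusters, had 1371, 1538 and 1447 in the clones and 1980.2, 2336 and 1569 in the controls (log2 fold change -0.42 ± 0.15, adjusted p = 0.0323). Sdhc, a membrane anchor, had 1966, 2126 and 1940.1 in the clones and 3889, 4282 and 3240.2 in the controls (log2 fold change -0.91 ± 0.12, adjusted p = 1.47e-04). The other anchor, Sdhd, had 2768, 2769 and 2585 in the clones and 4125, 4446 and 3356 in the controls (log2 fold change -0.55 ± 0.12, adjusted p = 0.00325). No clone overlapped a control for any of the 4, though Sdhb came closest, with clone 6 just below control 3. The call of Sdhb was lost with centring by chromosome, in a fit without trend and without any 1 library other than control 3, and that of Sdhc with centring; Sdha and Sdhd kept theirs under each alternative.

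In complex III, 5 of 9 members fell and 1 rose. Uqcrb, a small subunit at the ubiquinone site, had 1282, 1192 and 1172 in clones 5, 6 and 7, against 2914, 2266 and 2086 in controls 1, 2 and 3, and the clones held 50.2% of the control mean (log2 fold change -0.98 ± 0.14, adjusted p = 1.98e-04). Uqcrc1 and Uqcrc2, the large core proteins on the matrix side, had log2 fold changes of -0.70 (adjusted p = 0.00498) and -0.55 (adjusted p = 7.74e-04). Uqcrc1 had 3485, 4011 and 3984 in the clones and 5974, 8013 and 4956 in the controls. Cyc1, the cytochrome c1 haem protein, had 2804, 3088 and 3142 in clones 5, 6 and 7, against 4340.1, 5582 and 3789 in controls 1, 2 and 3 (log2 fold change -0.58 ± 0.15, adjusted p = 0.0058). For these 4 genes each clone was below each control, and control 2 was the highest library for Uqcrc1 and Cyc1. Uqcrh, the hinge protein that binds cytochrome c1, was called at -0.60, a call that was lost with centring by chromosome and without clone 7, control 1 or control 2.

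The catalytic Rieske protein and the small subunits Uqcrq, Uqcr10 and Uqcr11 were not called lower. Uqcrfs1, the Rieske iron-sulfur protein, had 2563, 2660.0 and 2547 in the clones and 2891, 2904 and 2009.8 in the controls, with a 95% interval from -0.33 to 0.36. Uqcrq had 1324, 2382 and 1845 in clones 5, 6 and 7, against 774, 1682 and 591 in controls 1, 2 and 3 and was called higher (log2 fold change 0.97 ± 0.36, adjusted p = 0.038). Clone 5 lay below control 2 for Uqcrq, and the call was lost under quantile scaling, scaling to the sum outside the mitochondrial genome, centring by chromosome and a fit without trend. It was also lost without clone 6, clone 7, control 1 or control 3. Uqcr11, another small subunit, had 1152, 1692 and 1591 in the clones and 670.5, 1524 and 561 in the controls and was not called (adjusted p = 0.0575), with control 2 again far above the other controls.

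Complex IV held the largest falls of the set, those of its paralogs Ndufa4l2 and Cox4i2, and its main subunits fell too. Cox4i1, the ubiquitous form of the largest nuclear subunit (ENSMUSG00000031818.12, chr8:120668222-120674207, plus strand, GRCm38), had 4072, 4848 and 4648 in clones 5, 6 and 7, against 10784, 16253 and 10532 in controls 1, 2 and 3, and the clones held 36.1% of the control mean (log2 fold change -1.44 ± 0.17, adjusted p = 6.76e-05). Cox5a and Cox5b, further nuclear subunits, also fell. Cox5a had 2348, 2442 and 2193 in clones 5, 6 and 7, against 5212, 4705 and 4287 in controls 1, 2 and 3 (log2 fold change -1.02 ± 0.11, adjusted p = 3.10e-05). Cox5b had 1546, 1662 and 1557 in the clones and 3234, 3577 and 2675 in the controls (log2 fold change -0.98 ± 0.12, adjusted p = 1.02e-04). Every clone lay well below every control for all 3 of these genes. Cox6c, Cox7a2, Cox7b and Cox7c, single-pass membrane subunits, were called lower at -0.65, -0.77, -0.48 and -0.88, and Ndufa4 at -0.32; the call of Cox7b was lost with centring by chromosome and without control 1. That of Ndufa4 was lost in a fit without trend and without any 1 library other than control 3.

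Cox6a1, Cox6b1 and Cox8a, ubiquitous subunits of complex IV, were not called. Cox6a1 had 2719, 3502 and 3168 in the clones and 2993, 4196 and 2630.5 in the controls, Cox6b1 had 3190.3, 3065 and 3320.2 in the clones and 3974, 4218 and 2914 in the controls and Cox8a had 2795, 3150.1 and 2968 in the clones and 2946, 3378 and 2106 in the controls, and each of these 3 genes had overlapping groups. Their 95% intervals were -0.45 to 0.36, -0.53 to 0.13 and -0.28 to 0.49 on the log2 scale, and Cox6b1 was called lower under quantile scaling and without control 3 (-0.36 in each). Cox7a2l, which is required for some supercomplexes of complexes III and IV, rose: it had 2692, 2996 and 2723 in clones 5, 6 and 7, against 1996, 2369 and 1973 in controls 1, 2 and 3 (log2 fold change 0.41 ± 0.11, adjusted p = 0.0087), with no overlap, although quantile scaling ended the call.

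Complex IV has paralogs that replace the ubiquitous subunits in some tissues or conditions, and all 4 of those tested fell. Ndufa4l2, which is induced by hypoxia through HIF-1 in several cell types (ENSMUSG00000040280.9, chr10:127514967-127517154, plus strand, GRCm38), had 13.9, 10.3 and 3.69 in clones 5, 6 and 7, against 318, 509.8 and 838 in controls 1, 2 and 3. The clones kept 1.67% of the control mean (log2 fold change -5.80 ± 0.48, adjusted p = 7.44e-06), and the controls themselves spanned a wide range with control 3 highest. Hif1a, the gene of the oxygen-regulated factor, went the other way, with 8564, 9149 and 8419.9 in clones 5, 6 and 7, against 2764, 2253 and 3227 in controls 1, 2 and 3 (log2 fold change 1.68 ± 0.14, adjusted p = 6.03e-06). Cox4i2, the form of Cox4 known from lung and hypoxic cells, was a rare transcript with 4, 2 and 0 whole reads in clones 5, 6 and 7 and 32, 38 and 36 in controls 1, 2 and 3 (log2 fold change -3.88 ± 0.56, adjusted p = 2.18e-04). Cox6b2, known from testis, had 372, 391 and 413 in clones 5, 6 and 7, against 839, 1076 and 1248 in controls 1, 2 and 3 (log2 fold change -1.41 ± 0.16, adjusted p = 5.66e-05). Every clone was below every control for these genes. Cox7a1, the heart and muscle form, had 97.5, 137 and 103 in the clones and 171, 184 and 199 in the controls (log2 fold change -0.72 ± 0.20, adjusted p = 0.0102), a call that was lost under quantile scaling; its groups did not overlap either. Cox7b2, also known from testis, had no read in any clone and 15, 3 and 10 whole reads in controls 1, 2 and 3, and was too rare to be tested.

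Ratios within a library do not depend on the scaling. Ndufa4l2 over Ndufa4 was 0.00457, 0.00335 and 0.00138 in the clones and 0.0809, 0.135 and 0.259 in the controls, so the mean ratio in the clones was 1.96% of that in the controls. Cox4i2 over Cox4i1 was at 16.0% and Cox6b2 over Cox6b1 at 41.2% of the control ratio, with all clones below all controls. Cox7a1 over Cox7a2 was at 99.8% with overlapping groups, and both genes were called lower. Cox7a2l over Cox7a2 was 1.39, 1.54 and 1.45 in the clones and 0.522, 0.612 and 0.831 in the controls, with all clones above all controls.

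**Figure D3:**
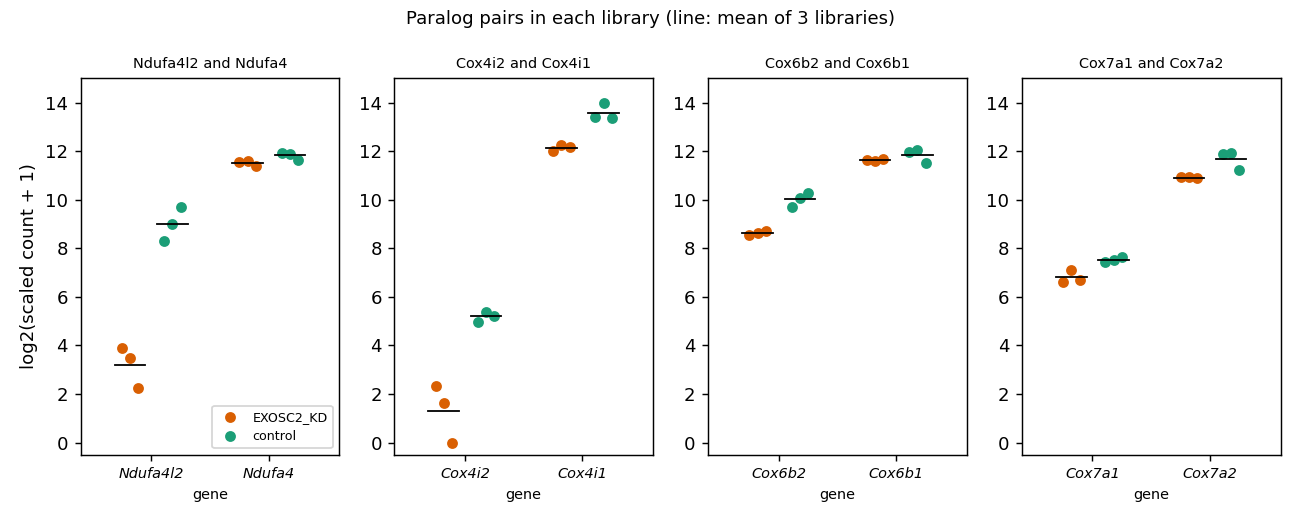
Points give log2(scaled count + 1) in each EXOSC2_KD and control library for 4 pairs of complex IV paralogs, and lines give the mean of 3 libraries. Ndufa4l2 and Cox4i2 lie far below their controls in every clone, while Ndufa4 is at -0.32 on the log2 scale.

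In complex V 10 of 17 members fell and none rose. The catalytic head (F1) was represented by 5 genes. Atp5a1 and Atp5b encode its alpha and beta subunits, where ATP is made, and Atp5b was the nuclear member with the highest level per kilobase of exon. Atp5a1 had 17438, 18009.7 and 16810.3 in clones 5, 6 and 7, against 29070.3, 30549.7 and 26136 in controls 1, 2 and 3 (log2 fold change -0.71 ± 0.10, adjusted p = 2.58e-04). Atp5b had 36305, 37809 and 36766 in clones 5, 6 and 7, against 50280.4, 50625 and 44468 in controls 1, 2 and 3 (log2 fold change -0.39 ± 0.11, adjusted p = 0.0105). Atp5c1, the rotating gamma subunit, had 4099.6, 4166 and 3821 in the clones and 7578, 6985 and 6516 in the controls (log2 fold change -0.80 ± 0.10, adjusted p = 8.71e-05). All 3 genes were lower in each clone than in each control. Atp5d and Atp5e, the delta and epsilon subunits of the central stalk, were at 0.56 and 0.30 and were not called (adjusted p = 0.0965 and 0.115).

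Of the 10 genes of the membrane part and the peripheral stalk, 5 fell. Atp5f1, the b subunit of the peripheral stalk, had 2519.8, 2738 and 2570.2 in clones 5, 6 and 7, against 5558, 5409 and 4786 in controls 1, 2 and 3, and the clones held 49.7% of the control mean (log2 fold change -1.01 ± 0.10, adjusted p = 2.21e-05). Atp5g1, Atp5g2 and Atp5g3 encode the same mature c subunit of the proton-driven ring. Atp5g3 fell with 4046, 4488 and 3859.9 in the clones and 7331, 7172 and 4768 in the controls (log2 fold change -0.61 ± 0.17, adjusted p = 0.00955), while Atp5g1 and Atp5g2 were at -0.38 and -0.17 and were not called. Atp5g1 was called lower under quantile scaling (-0.58), scaling to the sum outside the mitochondrial genome (-0.50), centring by chromosome (-0.55) and without control 3 (-0.61). The ratio of Atp5g2 to Atp5g3 was 0.208, 0.226 and 0.255 in the clones and 0.128, 0.204 and 0.184 in the controls, with every clone above every control. Atp5h, Atp5j and Atp5j2 were called lower at -0.29, -0.46 and -0.53, and each of these calls was lost without control 1. The call of Atp5h was also lost in a fit without trend and without clone 5, 6 or 7. The call of Atp5j was also lost without clone 7 or control 2.

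The 2 genes that share the Atp5 name without being subunits fell as well. Atp5sl, whose human counterpart DMAC2 takes part in the assembly of complex I, had 290.5, 327 and 299 in clones 5, 6 and 7, against 995, 1393 and 924 in controls 1, 2 and 3 (log2 fold change -1.83 ± 0.17, adjusted p = 1.57e-05). Atp5s had 153, 145 and 161 in the clones and 238, 215 and 260.1 in the controls (log2 fold change -0.63 ± 0.17, adjusted p = 0.00814). Without them, 8 of the 15 complex V subunits taken by symbol were called lower.

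Cycs, the mobile electron carrier that also triggers the apoptosome once released, had 1759, 1717 and 1583 in clones 5, 6 and 7, against 1729, 1543 and 978 in controls 1, 2 and 3 and was not called (log2 fold change 0.29 ± 0.20, adjusted p = 0.212). Its interval ran from -0.16 to 0.74, and control 3 was the lowest library. After centring by chromosome its log2 fold change was -0.10.

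The mitochondrial genes included the most abundant transcripts of the set, and none was called. Per kilobase of exon, the 7 tested genes had a median level of 37387 scaled counts in the clones and 45485 in the controls, beside 1047 in the clones and 1213 in the controls for the nuclear members. They took 2.13, 1.70 and 1.73% of the reads of clones 5, 6 and 7 and 3.28, 2.19 and 1.67% of those of controls 1, 2 and 3. The means were 1.85 ± 0.237% in the clones and 2.38 ± 0.819% in the controls (SD, n = 3 each), so the groups overlapped and the difference was smaller than the spread between controls. Counting error was far smaller, with a 95% binomial interval (Wilson) of 3.27 to 3.28% for control 1. The ratio of mitochondrial to nuclear member reads was 2.62, 1.97 and 2.09 in the clones and 2.68, 1.595 and 1.557 in the controls, with overlap.

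By gene, mt-Nd1 had 83093, 69181 and 68319.6 in clones 5, 6 and 7, against 120838, 80444 and 48137 in controls 1, 2 and 3, and mt-Nd2 had 43240.1, 37033 and 36151 in the clones and 68452, 45308 and 27879.8 in the controls. Both encode proton-pumping subunits of complex I. For mt-Nd4 the values were 31072, 24485 and 26074 in the clones and 38811, 25123 and 20003 in the controls, and for mt-Nd5 56532, 46217 and 46343 in the clones and 57464, 36385 and 34093 in the controls. The log2 fold changes of these 4 genes were -0.08, -0.19, 0.01 and 0.26, all with overlapping groups and none called. The single gene of the set on the opposite strand, mt-Nd6, had 2423, 1784 and 1426 in the clones and 2735, 1257 and 1321 in the controls (log2 fold change 0.15). Cytochrome b, the haem protein of complex III encoded by mt-Cytb, had 74868, 57592 and 65621 in the clones and 81731, 53683 and 34910.4 in the controls (log2 fold change 0.29). The catalytic subunit of complex IV, encoded by mt-Co1, had 227739, 188181 and 179463 in clones 5, 6 and 7, against 394551, 257813 and 206463 in controls 1, 2 and 3 (log2 fold change -0.48 ± 0.24, adjusted p = 0.0993). Control 1 was the highest control for each of the 7 genes and control 3 the lowest for 6, and their median SD on the log2 scale was 0.178 among the clones and 0.614 among the controls. Leaving out control 1 made mt-Nd5 and mt-Cytb called higher, and leaving out control 3 made mt-Co1 and mt-Nd2 called lower.

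Within the reads of the 7 mitochondrial genes the shares were steadier than the levels, a comparison chosen after the values were seen and given without a test. The share of mt-Co1 was 43.9, 44.3 and 42.4% in clones 5, 6 and 7, against 51.6, 51.6 and 55.4% in controls 1, 2 and 3, so every clone lay below every control. The share of mt-Cytb was 14.4, 13.6 and 15.5% in the clones and 10.7, 10.7 and 9.36% in the controls, and that of mt-Nd5 was 10.9, 10.9 and 10.9% in the clones and 7.52, 7.28 and 9.14% in the controls. Both, and mt-Nd4 with a mean of 5.97% in the clones and 5.16% in the controls, were higher in each clone than in each control. Shares of mt-Nd1, mt-Nd2 and mt-Nd6 overlapped. Since shares sum to a fixed total, a lower share of mt-Co1 raises the others, and the shares are not independent observations. The other shares did not rise alike. The mean share in the clones over that in the controls ran from 1.004 for mt-Nd2 and 1.081 for mt-Nd1 to 1.367 for mt-Nd5 and 1.413 for mt-Cytb. The ratio of mt-Co1 to mt-Cytb, which does not depend on the total, was 3.04, 3.27 and 2.73 in the clones and 4.83, 4.80 and 5.91 in the controls.

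**Figure D4:**
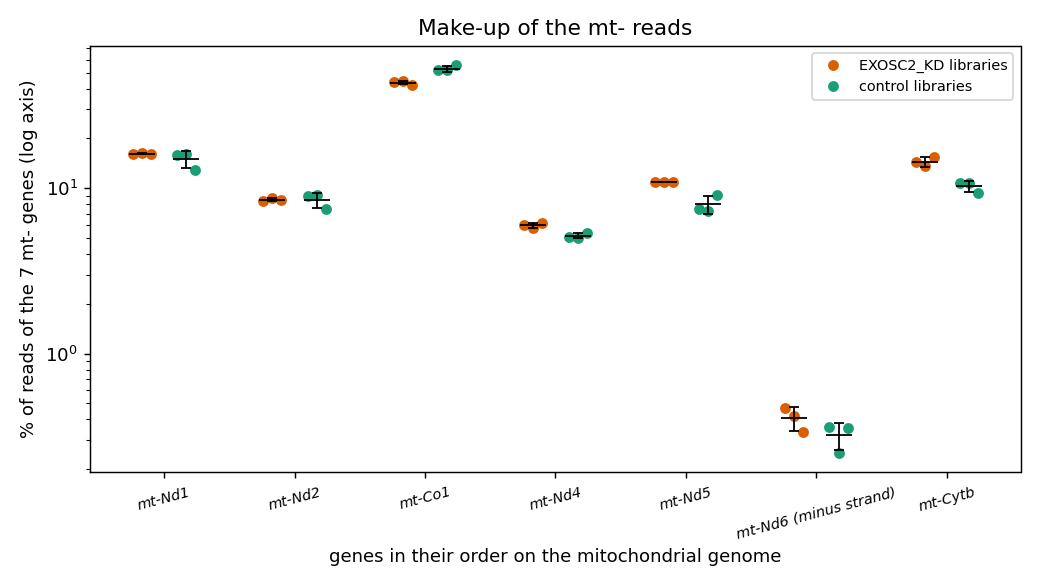
Points give the percentage of the reads of the 7 tested mt- genes that fell on each gene, on a log axis, in the EXOSC2_KD and control libraries, with dashes for the mean and bars for the SD (n = 3). The share of mt-Co1 averages 43.5% in the clones and 52.8% in the controls, and mt-Nd4, mt-Nd5 and mt-Cytb are higher in every clone.

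Nuclear copies limit what the mitochondrial counts mean. Parts of the mitochondrial genome were copied into the nuclear chromosomes in evolution, and reads that map to several places may be dropped or split by a counter. The sources used here do not say how the counting treated them. Of the 50-base words of mt-Nd3, 98.0% also occur in the transcript of another annotated gene, mainly Gm28438 at chr1:24612775-24613119. For mt-Nd4 the share was 62.2% and for mt-Co1 51.1%, and the part of such reads in the lower share of mt-Co1 was not tested. It was 8.19% for mt-Nd2, 7.61% for mt-Nd5 and 0 for mt-Nd1, mt-Nd6 and mt-Cytb. mt-Nd3 had no read in any clone and 4, 5 and 9 whole reads in controls 1, 2 and 3, and was below the filter. mt-Co2, mt-Co3, mt-Atp6, mt-Atp8 and mt-Nd4l are not analysed here.

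The start of mt-Nd3 and of its copy shows how close they are. Aligned without gaps, 344 of 345 bases were identical (99.71%). The first 60 bases of each annotated transcript (GENCODE M21, GRCm38) are given with the differing base in capitals, for mt-Nd3 at chrM:9459-9806 on the plus strand and for Gm28438 at chr1:24612775-24613119 on the minus strand.
mt-Nd3: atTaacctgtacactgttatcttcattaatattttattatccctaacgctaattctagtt
Gm28438: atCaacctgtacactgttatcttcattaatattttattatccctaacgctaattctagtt

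Among nuclear members, 49 of 83 shared at least 1 such word with another gene and none shared 50% or more. The shares were 41.6% for Atp5o, 38.4% for Atp5g2, 31.6% for Ndufb6, 28.5% for Ndufa13 and 26.1% for Cycs, whose values are uncertain for that reason. None of these genes was called. Among members that fell, the highest shares were 25.5% for Uqcrb, 22.1% for Cox7c, 19.9% for Atp5h, 17.9% for Ndufs3, 17.7% for Ndufa12 and 17.6% for Uqcrc2. The share was 14.3% for Atp5f1 and 6.65% for Cox4i1.

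Genes listed as assembly factors, most of which build the complexes without being part of them, changed in both directions. The lists also hold Ndufab1, a subunit of complex I, and Usmg5 and 2010107E04Rik, subunits of the ATP synthase. None of these was called. Of 22 tested factors of complex IV, 10 rose and 5 fell, with a median log2 fold change of 0.35, beside -0.75 for the complex IV members. That is 45.5% higher and 22.7% lower, beside 35.2% and 38.3% of all genes tested. Sco2, a copper chaperone for the catalytic core, had 209.9, 185 and 244 in clones 5, 6 and 7, against 57.8, 84.2 and 64.3 in controls 1, 2 and 3 (log2 fold change 1.62 ± 0.22, adjusted p = 1.64e-04). Coa3, which acts on newly made COX1, had 1343, 1448 and 1373 in the clones and 705, 779 and 579.5 in the controls (log2 fold change 1.02 ± 0.13, adjusted p = 1.28e-04). Fastkd1, a mitochondrial RNA-binding protein placed in that list, had 316, 302 and 281 in the clones and 1188, 959 and 1038 in the controls (log2 fold change -1.82 ± 0.14, adjusted p = 3.62e-06). Groups did not overlap for any of the 3. Surf1, mutated in human Leigh syndrome, was called lower at -0.37 (adjusted p = 0.0403), a call that was lost with centring by chromosome, a fit without trend, or without any 1 library other than control 3.

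For complex III, 3 of 6 factors rose and 1 fell, beside 35.2% higher and 38.3% lower of all genes tested. These counts are small, and a difference from those shares was not tested. Lyrm7, a chaperone of the Rieske protein, had 664, 554 and 597 in clones 5, 6 and 7, against 97.5, 72.4 and 121 in controls 1, 2 and 3 (log2 fold change 2.66 ± 0.21, adjusted p = 5.55e-06). Bcs1l, which inserts that protein into the complex, had 475, 438 and 433 in the clones and 838, 798 and 768 in the controls (log2 fold change -0.84 ± 0.12, adjusted p = 2.14e-04). The pair thus moved in opposite directions while Uqcrfs1 itself was not called; centring by chromosome ended the call of Bcs1l. Uqcc1, needed for cytochrome b, had 1491, 1269.9 and 1399 in the clones and 995, 953 and 779 in the controls (log2 fold change 0.61 ± 0.13, adjusted p = 0.00255).

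Of 19 genes in the assembly list of complex I, 3 rose and 8 fell, with a median of -0.14. That is 15.8% and 42.1%, beside 35.2% and 38.3% of all genes tested. Acad9 rose, with 3404, 3120.3 and 3351 in clones 5, 6 and 7, against 1120.3, 1207 and 1068 in controls 1, 2 and 3 (log2 fold change 1.54 ± 0.10, adjusted p = 1.73e-06). Ndufaf6 had 113, 103 and 101 in the clones and 307, 349 and 296 in the controls (log2 fold change -1.57 ± 0.17, adjusted p = 3.49e-05). Nubpl, which delivers iron-sulfur clusters, had 237, 256 and 232 in the clones and 649.6, 592 and 619.7 in the controls (log2 fold change -1.36 ± 0.13, adjusted p = 2.01e-05). The groups were far apart for all 3 genes. For complex II, 2 of 4 rose and 1 fell, counts too small to set against the same shares of all genes. Sdhaf2, which helps attach flavin to SDHA, rose to 1454 ± 44.8 in the clones, against 769.7 ± 24.7 in the controls (SD, n = 3 each). Sdhaf1, an iron-sulfur factor, rose by 0.51 on the log2 scale, and Sdhaf4 had 209, 208 and 153 in the clones and 566, 476 and 531 in the controls (log2 fold change -1.47 ± 0.18, adjusted p = 6.97e-05). Of the 7 genes in the list of complex V, 2 fell (28.6%) and none rose, beside 38.3% lower and 35.2% higher of all genes tested. Those that fell were Atpaf1, a chaperone of the beta subunit, at -1.47, and Atpif1, the inhibitor of ATP hydrolysis, at -0.80. Atpaf2, the chaperone of the alpha subunit, was at 0.25 and not called.

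**Figure D5:**
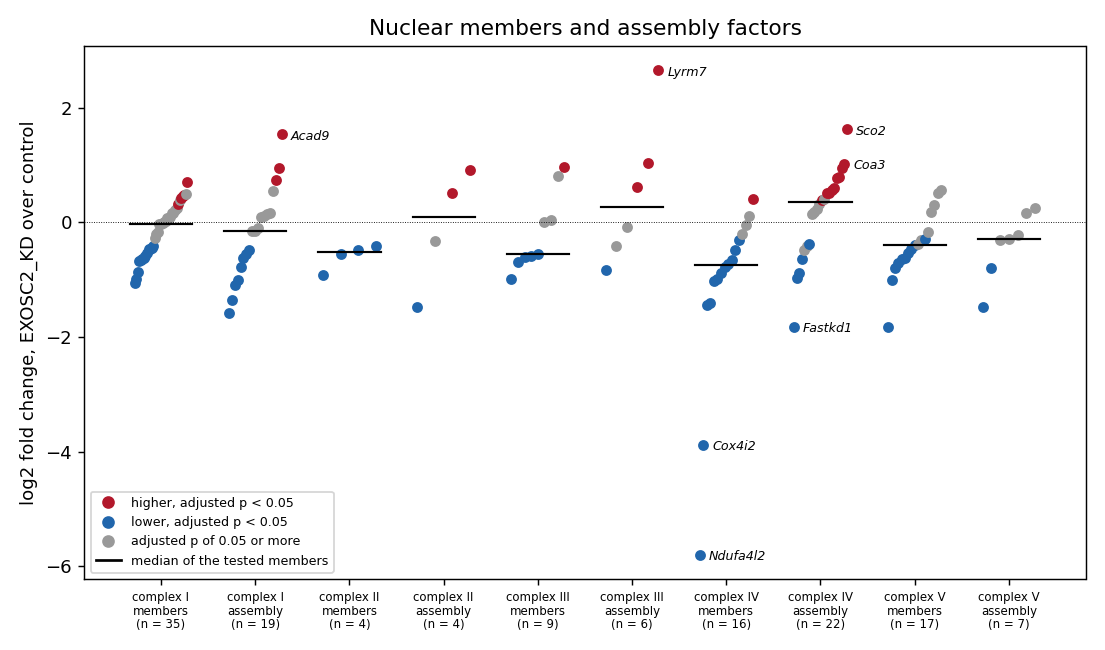
Points give the log2 fold change, EXOSC2_KD over control, of the nuclear members and of the assembly list of each complex. The lists of complexes I and V also hold some subunits. Colours mark calls at an adjusted p of 0.05 and lines mark medians. For complex IV the median is -0.75 for members, Cox7a2l among them, and 0.35 for assembly factors.

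Genes that maintain and express the mitochondrial genome changed in both directions, with 14 lower and 4 higher of 30 and a median of -0.38. That is 46.7% lower and 13.3% higher, beside 38.3% and 35.2% of all genes tested. Mgme1, an exonuclease of mitochondrial DNA, had 498, 479.8 and 496 in clones 5, 6 and 7, against 1486, 1359 and 1302 in controls 1, 2 and 3 (log2 fold change -1.49 ± 0.11, adjusted p = 3.97e-06). Tfam, which packages that DNA and starts its transcription, had 1757, 1737 and 1588 in the clones and 3069, 2736 and 2397 in the controls (log2 fold change -0.69 ± 0.12, adjusted p = 7.07e-04). Fastkd2, an RNA-binding protein, had 956, 887 and 900.4 in the clones and 2399.7, 2132 and 2039.9 in the controls (log2 fold change -1.26 ± 0.11, adjusted p = 8.85e-06). Each clone was lower than each control for these 3 genes. Grsf1, a protein of mitochondrial RNA granules, rose instead, with 7980.3, 7444 and 7454 in the clones and 4156, 3484 and 3553 in the controls (log2 fold change 1.03 ± 0.10, adjusted p = 2.32e-05). Lrpprc, which stabilises mitochondrial mRNAs, had 4058, 3924 and 3718 in the clones and 4434, 3835 and 4099 in the controls and was not called.

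Of 13 tested nuclear regulators of respiratory genes 3 rose and 5 fell, or 23.1% and 38.5%, beside 35.2% and 38.3% of all genes tested. Esrrb, an orphan receptor of ESCs, was nearly absent from the clones, with 1.99, 2.05 and 2.77 in clones 5, 6 and 7, against 15711, 16830.1 and 17098 in controls 1, 2 and 3. Ppargc1b, a coactivator of mitochondrial biogenesis, had 27.9, 40.1 and 24.0 in clones 5, 6 and 7, against 100.4, 150.1 and 110.5 in controls 1, 2 and 3 (log2 fold change -1.95 ± 0.28, adjusted p = 2.23e-04). Gabpa, an activator of many respiratory promoters, had 2359.7, 2351 and 2206 in the clones and 3774, 3065 and 3956 in the controls (log2 fold change -0.63 ± 0.12, adjusted p = 0.00115). These 3 genes were lower in every clone. Nrf1, another such activator, had 1265, 1274 and 1227 in the clones and 1575, 1611 and 1273 in the controls and was not called (adjusted p = 0.108), although quantile scaling, scaling to the sum outside the mitochondrial genome, centring by chromosome and leaving out control 3 each made it called lower. Myc rose, with 10904, 12619 and 12054 in clones 5, 6 and 7, against 327, 299 and 168 in controls 1, 2 and 3 (log2 fold change 5.54 ± 0.23, adjusted p = 1.51e-07). Esrra rose as well, with 1234, 2006 and 1695 in clones 5, 6 and 7, against 221, 498 and 284 in controls 1, 2 and 3. Its log2 fold change was 2.35 ± 0.30 (limma adjusted p = 9.77e-05), and every clone lay above every control. The other regulator called higher was Hif1a, given above. Coa1, Pet117 and Ppargc1a are not analysed here.

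The promoters of the members were read from RefSeq (GRCm38.p6, from 250 bases before to 50 after the start of a gene), where 66 member genes matched with 71 promoters. Both strands were searched for the letters CGCATGCG, the core bound by NRF1, AAGATGGC, bound by YY1, CCGGAAGT, bound by GABPA, and CACGTG, the E-box of MYC and its relatives. None of these motifs contains another. NRF1's letters were in 14.08% of member promoters and in 1.872% of all 32851. A longer form, the core with G before and C after it, was searched before the core was and was in 7.04% of member promoters and 0.971% of all, so the shares depend on the form used. YY1's letters were in 12.68% of member promoters and 2.749% of all. GABPA's were in 7.04% of member promoters and 3.887% of all, and the E-box in 8.45% of member promoters and 7.15% of all. These matches are descriptions, and no binding was measured.

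Called and uncalled members carried the same letters. Of all tested nuclear members 53.7% fell and 8.54% rose, beside 38.3% and 35.2% of all genes tested. Against these shares the counts below are small, and a tie between a motif and a direction was not tested. Of 9 genes with the YY1 letters 5 fell, 2 rose and 2 were not called. Of 10 genes with the NRF1 letters, Uqcrc1 and Atp5j fell, Ndufa8 rose and 7 were not called. With the longer form there were 5 genes, of which Uqcrc1 fell, none rose and 4 were not called. A promoter of each kind is shown with the motif in capitals: Ndufs4 (chr13:114388045-114388344, minus strand), a fall with the YY1 letters, Uqcrc1 (chr9:108936398-108936697, plus strand), a fall with the NRF1 letters, and Cox6a1 (chr5:115348909-115349208, minus strand), which holds the NRF1 letters and was not called.
Ndufs4: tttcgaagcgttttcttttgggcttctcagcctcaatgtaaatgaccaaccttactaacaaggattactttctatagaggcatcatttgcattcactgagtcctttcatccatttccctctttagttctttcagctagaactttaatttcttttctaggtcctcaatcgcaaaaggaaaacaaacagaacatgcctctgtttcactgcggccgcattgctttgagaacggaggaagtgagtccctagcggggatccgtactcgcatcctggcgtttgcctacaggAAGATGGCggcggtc
Uqcrc1: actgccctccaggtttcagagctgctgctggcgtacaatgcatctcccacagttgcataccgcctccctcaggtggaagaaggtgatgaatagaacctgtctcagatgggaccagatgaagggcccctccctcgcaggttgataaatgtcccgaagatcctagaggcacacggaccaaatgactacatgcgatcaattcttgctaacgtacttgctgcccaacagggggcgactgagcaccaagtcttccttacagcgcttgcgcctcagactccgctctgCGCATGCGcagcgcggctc
Cox6a1: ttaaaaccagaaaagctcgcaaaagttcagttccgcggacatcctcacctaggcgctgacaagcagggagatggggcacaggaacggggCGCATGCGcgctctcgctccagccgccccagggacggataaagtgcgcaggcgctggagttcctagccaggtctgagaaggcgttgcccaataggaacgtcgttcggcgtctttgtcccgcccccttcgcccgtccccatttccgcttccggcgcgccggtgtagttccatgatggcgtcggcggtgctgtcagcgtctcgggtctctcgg
In Uqcrc1 the NRF1 letters lie shortly after the start of the gene, and in Cox6a1 they lie upstream of it. Uqcrc1 was at -0.70, Ndufa8 at 0.47 and Cox6a1 at -0.04 on the log2 scale, so genes holding the motif were found with calls in both directions and with none.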

How the data were processed

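Per the labels' protocols, libraries were prepared from poly(A)-selected RNA with the TruSeq Stranded mRNA kit. Per the submitters' processing notes the build was mm10 and the tools were DESeq 1.22.1, HTSeq 0.5.3, STAR 2.5.0a and cutadapt 1.6. The sources used here do not say whether counting used the strand. The deposited values are a signal per gene, read counts scaled by DESeq per the file headers and those notes. Within a library, every value divided by the smallest unit of that library was a whole number within 0.001, which gave the read totals; the units of some libraries lay too near 1 for a separate check, so no count model was run. Because the values are not raw counts, limma 3.58.1 (eBayes with trend, R 4.3.3) was fitted to log2(value + 1) of the 15179 genes with a mean of at least 10, with Benjamini-Hochberg adjustment over all of them and a threshold of 0.05. Changes of rare transcripts are understated on this scale. The script was tested on simulated data. Groups came from the sample titles, and every library entered the fit. Each complex or list is described by counts and medians, with no test over its members.

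Of the table's genes, 17860 matched GENCODE M21 (GRCm38, the assembly of mm10), which gave positions and exon lengths. Binomial intervals cover counting error only, since PCR copies of a molecule could not be recognised. Values are given for genes taken by a rule. The rule took all mitochondrial protein genes of the set, members called at 2-fold or more, isoform pairs, Cycs and Cyc1. In each complex it took the called members with the smallest p and the largest changes. From each pathway list it took the 3 with the smallest p and some named regulators. Genes named outside this rule, such as Ndufb7, Ndufs1, Ndufv1, Uqcrfs1, Uqcr11, Atp5s, Cox7b2 and the regulator Esrra, were chosen after their values were seen. The members and lists were chosen with earlier results of these data known. Alternatives were other pseudocounts, filters and scalings, limma without trend or with robust estimation, centring by chromosome, and leaving out each library. The NRF1 core was adopted after the result of the longer motif had been seen, for a reason of presentation and not for its counts, and both are given. The values of 1 member are not reported here, though it is counted.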

Additional observations from a re-analysis of the deposited data

How the results depend on the processing

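Of the 44 nuclear members called lower, 27 were called lower under each alternative run, and of the 7 called higher 1 was. The count of nuclear members called higher was 2 under quantile scaling, 3 when values were scaled to their sum outside the mitochondrial genome, 4 without a trend, and 2 to 17 when a library was left out. For the mitochondrial genes, 1 was called lower without a filter on low values (mt-Nd3) and 1 when values were scaled to their sum outside the mitochondrial genome (mt-Co1), a scaling that moved the median of all genes by -0.12, to -0.19; leaving out a library gave 0 to 2 called higher and 0 to 2 called lower. The median of complex II was -0.67 under quantile scaling and -0.29 with centring by chromosome, and that of complex IV ran from -0.93 to -0.66 when a library was left out. For Cycs centring gave -0.10, and the log2 ratio of Cox4i2 to Cox4i1 ran from -3.79 to -2.06 over libraries left out. Ndufb3, called lower, turned to 0.13 with centring and was not called there. The other turns of sign given here were among members without a call. When a library was left out, mt-Nd1 ran from -0.43 to 0.23, mt-Nd2 from -0.53 to 0.12, mt-Nd4 from -0.21 to 0.27, mt-Nd6 from -0.054 to 0.51, mt-Cytb from -0.013 to 0.60, Cox6a1 from -0.19 to 0.15, Cox8a from -0.088 to 0.25 and Atp5g2 from -0.31 to 0.056. Quantile scaling gave -0.021 for mt-Nd4, -0.047 for mt-Nd6 and -0.067 for Cox8a, scaling to the sum outside the mitochondrial genome -0.11 for mt-Nd4 and -0.012 for Cox8a, and centring -0.28 for Cox8a. The cause of these changes was not tested. The planned edgeR and DESeq2 tests on raw counts were not run, because a separate check of the whole reads was not possible for libraries whose smallest unit lies near 1. No paired analysis was possible because the groups share no replicate numbers. With 3 libraries a group, single values could not reach an exact permutation p below 0.1, and the spread of the controls limits what can be called among mitochondrial genes.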

Other observations

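The mitochondrial ribosomal RNAs, outside the protein genes described above, were also in the table. mt-Rnr1, the small-subunit rRNA, had 6773, 6291 and 5493 in clones 5, 6 and 7, against 13371, 9923 and 8045 in controls 1, 2 and 3 (log2 fold change -0.73 ± 0.18, adjusted p = 0.00544), and every clone was lower than every control. mt-Rnr2, the large-subunit rRNA, had 7099, 5416 and 4943 in clones 5, 6 and 7, against 22679.9, 14806 and 6035 in controls 1, 2 and 3 (log2 fold change -1.14 ± 0.41, adjusted p = 0.0321), and control 3 lay within the range of the clones. Both rRNAs together took 0.0568, 0.0469 and 0.0427% of the reads of clones 5, 6 and 7, against 0.154, 0.108 and 0.0631% of those of controls 1, 2 and 3. The libraries were made from poly(A)-selected RNA, so these reads may not follow the amount of rRNA in the cells. Words shared with other genes were not counted for the rRNAs. These 2 genes were picked after the values were seen.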
